A study of Mus musculus with 15 samples.

Results

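Nuclear receptors are transcription factors that read lipid-soluble signals, and 38 mouse genes of this family were followed across the livers of 15 mice. The members were named among the receptors for thyroid hormone, retinoids, sterols, bile acids, xenobiotics, vitamin D and steroids and the orphan receptors. They were chosen with earlier results of these data known. The list is not the whole family: 10 other receptors were kept apart, among them Ppara, Rxra, Hnf4a, Nr1d1 and Nr1d2. Shares given below for the receptors leave these out. Every probe set of the array that carries a member's symbol and no other was taken. Of 45037 probe sets, 94 carried a member's symbol alone, and they stood for 36 of the 38 genes. No such probe set was listed for Nr1h2 or Nr2e3. The 932 probe sets that carry several symbols were not searched for members. The mice were male C57BL/6J, 8 weeks old at the start and fed for 12 weeks. The NC group (*n* = 5) received the standard chow CRF-1. The CL group (*n* = 5) received CRF-1 (38.23%) into which 0.5% sodium cholate, 1.25% cholesterol and 60% cocoa butter had been mixed, so the mice of both CL groups were also fed a bile salt. The CL+CX group (*n* = 5) received the CL diet with β-cryptoxanthin, a xanthophyll carotenoid, at 0.005% by the titles of the samples and at 0.003% by the treatment text of the labels and the methods. Liver RNA of each mouse was hybridised to 1 Affymetrix GeneChip mouse genome array.

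Most nuclear receptors carry a zinc-finger DNA-binding domain and a ligand-binding pocket, and many bind their target genes as heterodimers with a retinoid X receptor. In the liver they match metabolism to what arrives in the blood: LXRα (Nr1h3) responds to oxysterols, FXR (Nr1h4) to bile acids, PXR (Nr1i2) and CAR (Nr1i3) to foreign compounds and bile acids, and the glucocorticoid receptor (Nr3c1) to corticosterone. Their activity is set mainly by ligands and coregulators, and an mRNA level does not measure it.

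Signals were scaled so that the 75th percentile of every array was 54.4, and all levels below are log2 of this scaled signal. A difference of 1 is therefore a 2-fold difference. The median of an array lay at 3.51 to 3.77 on this scale, and a probe set was tested if it reached the median of its array in all 5 mice of at least 1 group, which 20342 probe sets of 10521 genes did. Libraries of the same group correlated with a mean r of 0.957 to 0.972, except CL replicate 2 at 0.941. The difference between the 3′ and 5′ β-actin probe sets, a measure of RNA integrity, averaged 1.07 (SD 0.10, *n* = 5) under CL+CX against 0.82 (SD 0.10, *n* = 5) under CL alone, and every CL+CX mouse lay above every CL mouse. Hepatocyte markers were present in every group, and 7 of the 8 listed genes were tested. The log2 of their summed scaled signals was 15.72 to 16.04 in NC, 15.26 to 15.87 in CL and 15.38 to 15.66 in CL+CX. The median difference of these genes from NC was -0.31 under CL and -0.27 under CL+CX. Its part in the receptor differences was not tested. Of the 7 genes, 1 was called lower in CL than in NC (Apob, -0.42, adjusted p = 0.0173) and none in the other comparisons. Alb was at -0.38 in CL (adjusted p = 0.119). For the 11 macrophage markers the log2 of the summed scaled signals was 10.2 to 11.4 in NC, 12.8 to 13.2 in CL and 11.2 to 12.4 in CL+CX. Because whole liver was measured, fewer cells of a type and less RNA per cell cannot be told apart.

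In all, 46 probe sets of 22 receptor genes were tested, among them LXRα, FXR, SHP, PXR, CAR and the glucocorticoid receptor. In 19 of these genes the probe set with the highest mean reached the median of all 15 arrays. The exceptions were Rarb (14 arrays), Pparg (14 arrays) and Esrrg (13 arrays). For 14 genes no probe set passed, and they are too dim to judge: Thrb, Rara, Ppard, Rorb, Vdr, Hnf4g, Nr2f1, Esr2, Pgr, Esrrb, Nr4a2, Nr4a3, Nr5a1 and Nr0b1. Their brightest probe sets reached the median in 9 arrays for Thrb and Nr4a2, in 8 for Ppard, in 5 for Rara and Pgr, in 4 for Esrrb, in 1 for Rorb, Vdr and Nr2f1, and in none for Hnf4g, Esr2, Nr4a3, Nr5a1 and Nr0b1. The remaining 48 probe sets that missed the filter include some of genes that were tested through another one.

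**Figure D1:**
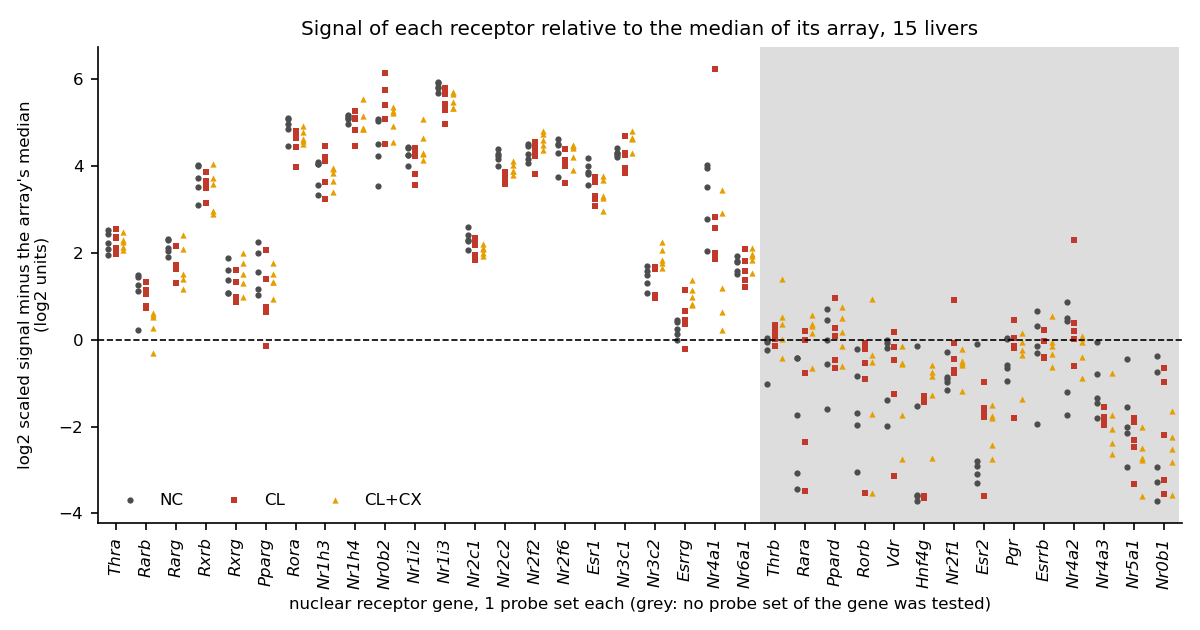
Log2 scaled signal minus the median of the same array (y axis, log2 units) for 1 probe set of each of 36 receptor genes (x axis), with 1 point per liver of the NC, CL and CL+CX groups and the dashed line at the array median. The 14 genes on grey scatter around or below the line, and the heights of different genes are not comparable because each probe set has its own affinity.

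Thrb and Rara, the thyroid hormone receptor β and the retinoic acid receptor α, were each represented by 1 probe set near or below the median. Thrb (1422202_at) read 3.61, 3.35, 2.61, 3.71 and 3.59 in NC mice 1 to 5, 3.60, 3.86, 3.88, 3.75 and 3.46 in CL mice, and 4.28, 3.89, 5.16, 3.52 and 3.17 in CL+CX mice. It reached the median in 1, 4 and 4 mice of the groups, and the groups overlapped. Rara (1450180_a_at) read 3.15, 1.87, 3.21, 0.65 and 0.20 in NC mice, 3.51, 1.29, 0.06, 2.97 and 3.81 in CL mice, and 4.07, 3.89, 3.11, 4.08 and 3.75 in CL+CX mice. It reached the median in 0 NC mice, 1 CL mouse and 4 CL+CX mice, so no difference was estimated for it.

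The first comparison asks what the CL diet did to the level of the receptors. Of the 46 probe sets, 5 were called lower in CL than in NC mice and none higher at an adjusted p under 0.05 (limma with Benjamini-Hochberg adjustment over all 20342 probe sets). The share called was 10.9%, against 12.2% of all probe sets tested (5.9% higher). Called lower were 10.9% of the receptor probe sets and 6.35% of all. The 5 belonged to Thra, Rora, Nr2c2 and Nr3c1. The median difference over the 46 probe sets was -0.20 and over all probe sets -0.09. At gene level, the probe set of the highest mean stood for a gene. By this measure 1 of 22 receptors was called, Nr2c2, which was lower. Over all genes 14% were called and 6.76% were called lower. Of the 22 receptors 18 were below 0, as were 60.1% of all genes. This split depends on the scaling. With the signals as deposited, the median difference of all probe sets moved from -0.09 to 0.23 and 6 of 22 receptors were below 0. In both cases 17 of 22 lay under the median of all probe sets. Scaling moves all differences by about the same amount, so this count could hardly change with it. The count was 16 with quantile normalization and 13 without CL replicate 2. Without CL replicate 2, 11 probe sets were called, beside 18.9% of all.

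**Figure D2:**
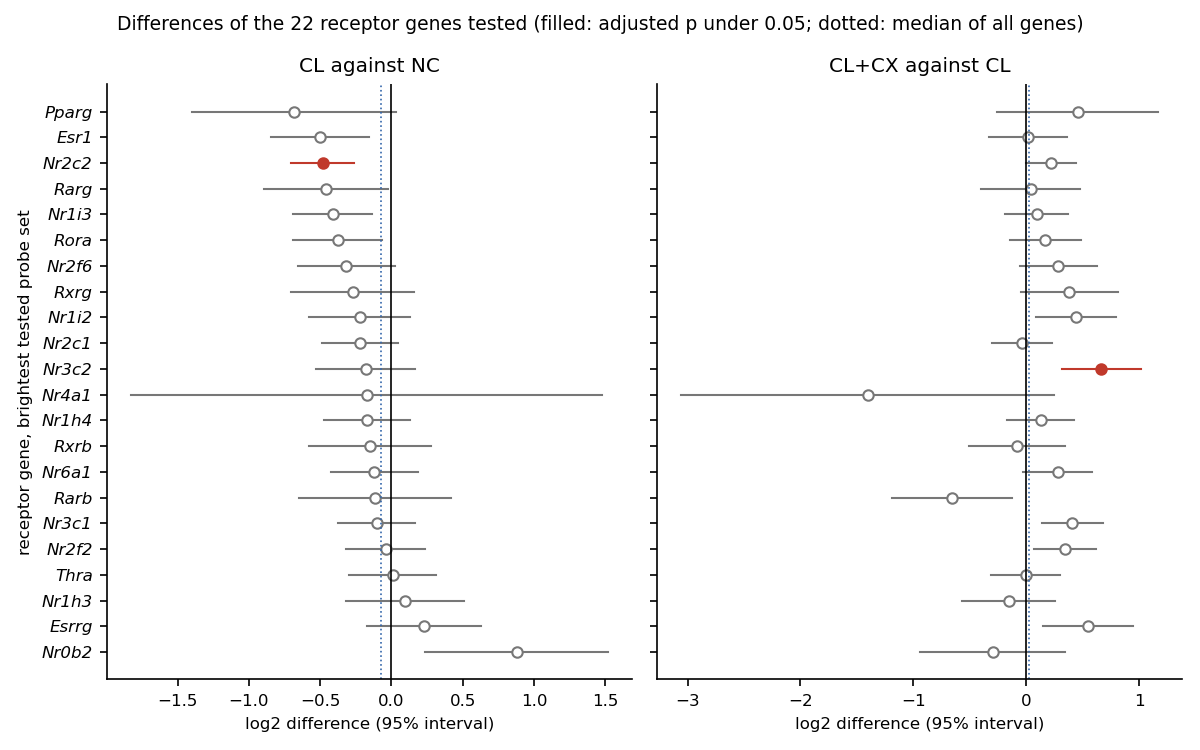
Log2 differences with 95% intervals (x axis) of the 22 receptor genes tested (y axis, 1 probe set per gene), for CL against NC on the left and CL+CX against CL on the right. Filled red points passed the test (Nr2c2 at -0.48 on the left, Nr3c2 at 0.67 on the right), and the dotted line is the median of all genes.

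Nr2c2 encodes testicular receptor 4, an orphan receptor that binds direct repeats of the AGGTCA element. Its level fell in the CL diet by both of its brighter probe sets. 1454851_at read 7.94, 7.75, 7.91, 7.71 and 7.86 in NC mice 1 to 5, 7.32, 7.50, 7.22, 7.32 and 7.40 in CL mice, and 7.55, 7.63, 7.79, 7.40 and 7.49 in CL+CX mice. Every CL mouse was below every NC mouse, and the CL+CX mice overlapped both groups. The difference between CL and NC was -0.48 (standard error 0.10, adjusted p = 0.00728), a 1.40-fold lower signal. 1451569_at read 6.61, 6.62, 6.44, 6.22 and 6.27 in NC, 5.68, 4.86, 5.82, 5.72 and 5.86 in CL, and 5.91, 5.91, 5.59, 6.14 and 5.79 in CL+CX. The CL mice again lay below all NC mice, with CL replicate 2 far below the other CL mice, and the difference was -0.84 (standard error 0.18, adjusted p = 0.00631). Without that mouse it was -0.66, still called. The third probe set, 1425014_at, was at -0.42 and did not pass (adjusted p = 0.142). Differences of CL+CX from CL were 0.02 to 0.28, none called. The same order, NC above CL+CX above CL, held for the means of all 3 probe sets. Averaged over these, Nr2c2 was also called between CL+CX and NC (-0.41, standard error 0.11, adjusted p = 0.0225). Its relative Nr2c1, testicular receptor 2, was below 0 on all 4 of its probe sets in CL (-0.11 to -0.60), none called.

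Thra encodes the thyroid hormone receptor α, and its 3 probe sets did not move together. 1426997_at read 6.03, 6.06, 5.85, 6.19 and 6.00 in NC mice, 5.22, 5.03, 5.30, 5.52 and 5.32 in CL mice, and 5.38, 5.54, 5.12, 5.47 and 5.05 in CL+CX mice. All CL and all CL+CX mice lay below all NC mice. It was 0.75 lower in CL than in NC (difference -0.75, standard error 0.13, adjusted p = 0.00151), a 1.68-fold lower signal, and CL+CX and CL differed by 0.04 (95% interval -0.23 to 0.30). 1454675_at, which has the highest mean of the 3, read 5.78, 6.11, 5.59, 5.80 and 6.06 in NC, 5.49, 6.20, 5.89, 5.84 and 5.98 in CL, and 6.04, 6.01, 5.90, 5.76 and 5.67 in CL+CX. Its groups overlapped fully, at a difference of 0.01 between CL and NC (95% interval -0.29 to 0.31). 1443952_at was at 0.28 (adjusted p = 0.389). The interval of 1426997_at, -1.01 to -0.48, does not reach those of the other probe sets, and averaged over the 3 Thra was at -0.15 (adjusted p = 0.310). The annotated span of Thra overlaps that of the neighbouring receptor gene Nr1d1, and which transcripts each probe set detects was not examined here.

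Rora, the retinoic acid receptor-related orphan receptor α, activates Arntl and other genes through elements that the REV-ERB receptors repress. All 7 of its tested probe sets were lower in CL than in NC, at -0.19 to -0.67, and 1 was called. That probe set, 1458129_at, read 5.63, 5.58, 5.57, 5.97 and 5.33 in NC mice, 4.65, 4.57, 4.93, 5.04 and 5.53 in CL mice, and 5.10, 4.85, 5.06, 5.18 and 5.09 in CL+CX mice. CL replicate 5 lay among the NC mice and the other CL mice below them. The difference was -0.67 (standard error 0.17, adjusted p = 0.0170), a 1.59-fold lower signal. The probe set with the highest mean, 1424034_at, read 8.66, 8.56, 8.72, 8.17 and 8.48 in NC, 8.31, 7.62, 8.20, 8.17 and 8.41 in CL, and 8.26, 8.31, 8.34, 8.43 and 8.21 in CL+CX. Its groups overlapped (difference -0.38, adjusted p = 0.111). The mean over the 7 probe sets was -0.43 (standard error 0.12, adjusted p = 0.0199). These probe sets share 1 gene and the same mice and are not independent measurements of it. CL+CX differed from CL by -0.23 to 0.28 over the 7, with no call.

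Nr3c1, the glucocorticoid receptor, was called on its dimmest tested probe set only. 1421866_at read 3.88, 4.22, 3.96, 4.29 and 3.84 in NC mice, 3.59, 3.53, 3.28, 2.92 and 3.70 in CL mice, and 4.24, 4.13, 4.32, 3.30 and 4.27 in CL+CX mice. All CL mice lay below all NC mice, but only 2 CL mice reached the array median. It entered the test through the NC mice alone, where it is high, and with no filter it did not pass (adjusted p = 0.150). The difference was -0.64 (standard error 0.20, adjusted p = 0.0467), and it did not pass without CL replicate 1, 3 or 4, without CL+CX replicate 1, 2, 3 or 5, or without any 1 of the NC mice (adjusted p 0.0516 to 0.114). The probe set with the highest mean, 1460303_at, read 7.85, 7.85, 8.06, 7.93 and 7.93 in NC, 8.22, 7.59, 7.84, 7.58 and 7.87 in CL, and 8.03, 8.34, 8.39, 8.15 and 8.24 in CL+CX. Its NC and CL mice overlapped, at a difference of -0.10 (95% interval -0.37 to 0.17). The other 3 were at -0.02 to -0.16, so the fall in CL rests on 1 of 5 probe sets.

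**Figure D3:**
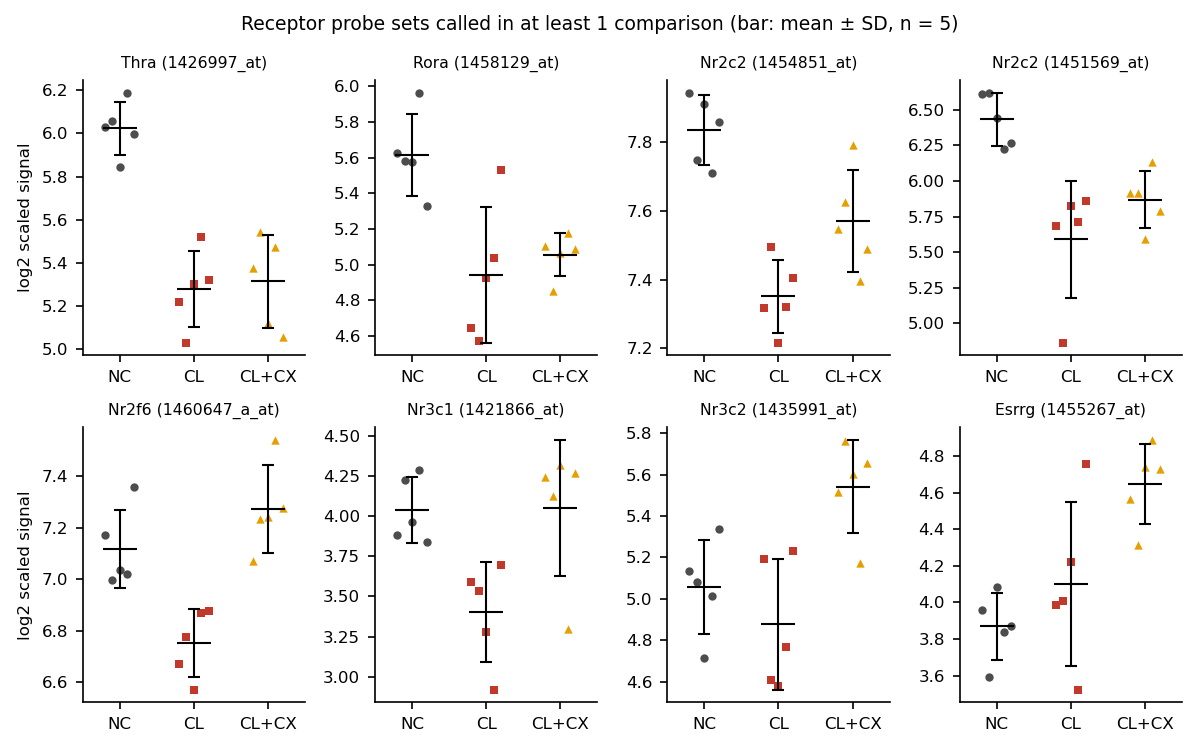
Log2 scaled signal (y axis) of the 8 receptor probe sets that passed the test in at least 1 comparison, with 1 point per liver in each of NC, CL and CL+CX (x axis) and bars for the mean ± SD (*n* = 5). Thra, both Nr2c2, the Nr3c1 and the Nr2f6 probe sets separate the NC mice from the CL mice, and Nr2f6 also separates CL+CX from CL. Thra, Rora, Nr2c2 (1451569_at) and Esrrg separate CL+CX from NC. Each panel has its own y range.

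No receptor of sterols or bile acids passed the test in CL against NC, and SHP had the highest difference of the 22 genes. Nr1h3 (1450444_a_at), LXRα, read 7.60, 7.69, 7.67, 7.05 and 7.20 in NC mice, 7.65, 8.10, 7.75, 6.97 and 7.22 in CL mice, and 7.40, 7.35, 7.18, 7.44 and 7.54 in CL+CX mice. The 3 groups overlapped, and CL differed from NC by 0.10 (95% interval -0.32 to 0.51). Nr1h4 (1419105_at), FXR, read 8.66, 8.57, 8.72, 8.87 and 8.81 in NC, 8.61, 8.91, 8.64, 8.19 and 8.42 in CL, and 8.59, 9.06, 8.62, 8.67 and 8.47 in CL+CX. It too overlapped, at -0.17 in CL (95% interval -0.47 to 0.13). Nr0b2 (1449854_at), the small heterodimer partner SHP, has no DNA-binding domain, is induced by FXR and represses bile acid synthesis. It read 7.78, 8.11, 8.71, 7.26 and 8.68 in NC, 9.26, 8.16, 8.62, 9.14 and 9.74 in CL, and 8.30, 8.78, 8.99, 8.86 and 8.51 in CL+CX. CL replicates 1, 4 and 5 were above every NC mouse and CL replicates 2 and 3 among them. Its difference was 0.88 (standard error 0.30, 95% interval 0.24 to 1.52, adjusted p = 0.0709), and without CL replicate 2 it was 1.08 and passed (adjusted p = 0.0192). CL+CX and CL differed by -0.30 (95% interval -0.94 to 0.35).

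Both xenobiotic receptors were lower in CL on average, and neither passed. Nr1i3 (1425392_a_at), CAR, read 9.49, 9.41, 9.55, 9.38 and 9.43 in NC mice, 8.82, 9.43, 9.21, 8.70 and 9.04 in CL mice, and 9.09, 9.23, 9.24, 9.18 and 8.93 in CL+CX mice. CL replicate 2 lay within the NC range, and the other CL mice and all CL+CX mice below it. Its difference between CL and NC was -0.41 (standard error 0.13, adjusted p = 0.0512), and -0.51 without CL replicate 2 (adjusted p = 0.00738). In a separate fit on 1 averaged value per gene it passed (adjusted p = 0.0372). Nr1i2 (1451807_at), PXR, read 7.97, 7.85, 7.88, 7.71 and 8.07 in NC, 7.33, 7.88, 7.84, 7.30 and 8.01 in CL, and 8.05, 8.15, 7.91, 8.59 and 7.87 in CL+CX. The CL mice fell into a low pair, replicates 1 and 4, and 3 that matched NC, and the difference was -0.22 (adjusted p = 0.422). Its second probe set was at -0.18.

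The other receptors tested did not pass in CL against NC. Esr1, the estrogen receptor α, was at -0.50 and -0.55 on its 2 probe sets (adjusted p = 0.0552 and 0.0763), and its mean over both passed (-0.53, adjusted p = 0.0288). Among the retinoid receptors, Rarg was at -0.46, Rxrg at -0.27, Rxrb at -0.15 and Rarb at -0.12. Pparg, the adipogenic PPARγ, was at -0.68 with a wide interval of -1.40 to 0.03. The COUP family members Nr2f2 and Nr2f6 were at -0.04 to 0.23 over 4 probe sets and at -0.31 and -0.36 over 2. Nr3c2 was at -0.18, Nr6a1 at -0.12 and Esrrg at 0.23.

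**Figure D4:**
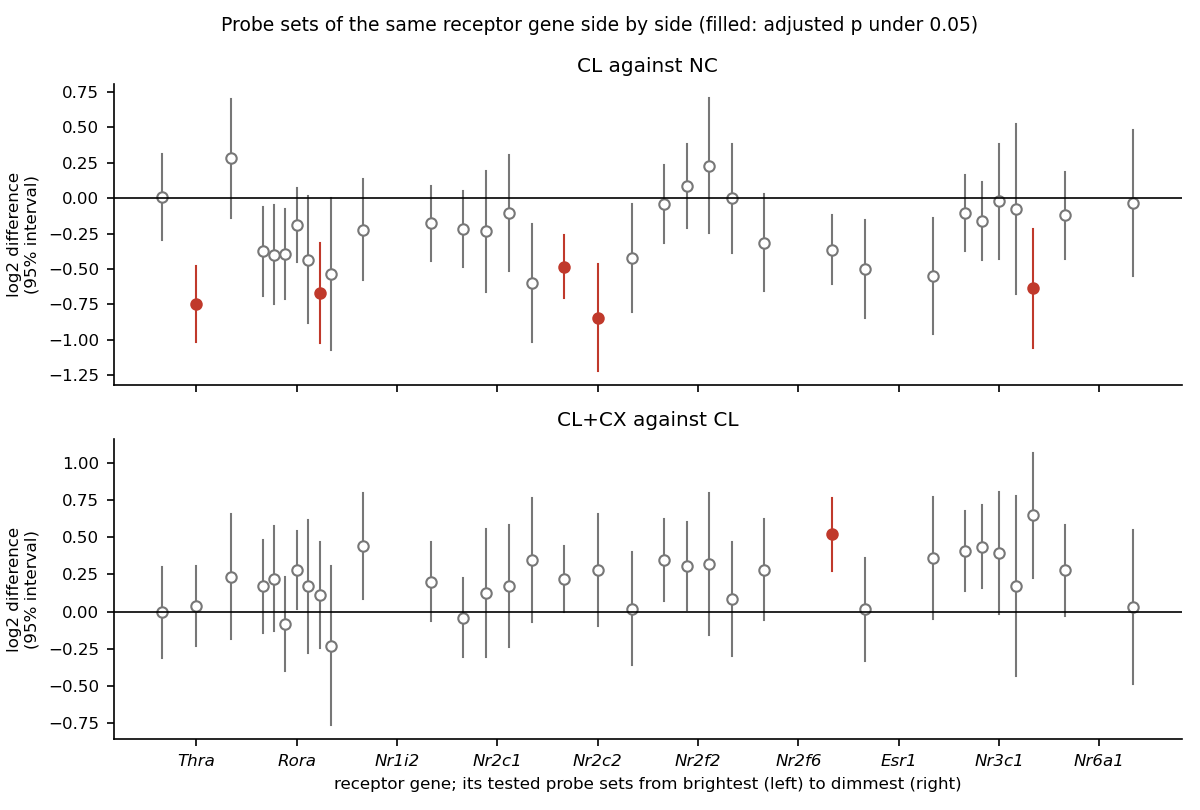
Log2 differences with 95% intervals (y axis) of every tested probe set of the 10 receptor genes that have at least 2 (x axis), for CL against NC above and CL+CX against CL below, with filled red points for those that passed. The 7 Rora probe sets all lie below 0 in the upper panel, the 3 of Thra do not lie together, and the 5 of Nr3c1 all lie above 0 in the lower panel.

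The second comparison asks what β-cryptoxanthin in the CL diet did to the receptors, and it shares the CL mice with the first. Of the 46 probe sets, 2 were called higher in CL+CX than in CL and none lower. These were 4.35% of the receptor probe sets, against 3.13% of all probe sets tested, of which 1.58% were called higher and 1.55% lower. The median difference was 0.19 over the receptor probe sets and 0.04 over all. Both calls depended on the settings. With the β-actin difference as a covariate neither passed (adjusted p = 0.911 for Nr2f6 and 0.743 for Nr3c2), but only 0.00492% of all probe sets did. Every CL+CX mouse lay above every CL mouse on this covariate, so this fit cannot separate it from the groups. The part of RNA integrity in the result was not tested. Without CL replicate 3, or without CL+CX replicate 2, 3 or 5, no receptor was called (beside 1.47%, 0.634%, 0.521% and 2% of all probe sets). Without CL replicate 5, 4 were (beside 4.76%). Without NC replicate 1, 2 or 4, CL replicate 2 or 4, or CL+CX replicate 1, 1 was (beside 1.63% to 3.92%).

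Nr2f6, also known as EAR2, is a COUP-TF relative that acts mostly as a repressor. 1460647_a_at read 7.17, 7.00, 7.04, 7.02 and 7.36 in NC mice, 6.67, 6.78, 6.57, 6.87 and 6.88 in CL mice, and 7.07, 7.23, 7.24, 7.54 and 7.28 in CL+CX mice. Every CL mouse lay below every mouse of the other groups, which overlapped with each other. CL+CX was higher than CL by 0.52 (standard error 0.12, adjusted p = 0.0289), a 1.43-fold higher signal. The difference between CL and NC, -0.36, did not pass (adjusted p = 0.0513). The call was lost without CL replicate 1 or 3 or without CL+CX replicate 2, 3, 4 or 5 (adjusted p 0.0508 to 0.0752). Its other probe set, 1460648_at, read 7.86, 8.07, 8.26, 7.46 and 8.15 in NC, 7.66, 7.26, 7.59, 7.72 and 7.99 in CL, and 7.66, 7.99, 7.98, 8.0 and 8.0 in CL+CX. There the groups overlapped, at 0.28 between CL+CX and CL (adjusted p = 0.358).

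Nr3c2 encodes the mineralocorticoid receptor, which binds corticosterone as well as aldosterone. Its only probe set, 1435991_at, read 5.13, 5.08, 4.72, 5.02 and 5.34 in NC mice, 5.19, 4.61, 4.58, 4.77 and 5.23 in CL mice, and 5.51, 5.76, 5.60, 5.17 and 5.66 in CL+CX mice. CL+CX replicate 4 lay among the CL mice and the other 4 above them. CL+CX was higher than CL by 0.67 (standard error 0.16, adjusted p = 0.0410), a 1.59-fold higher signal, and CL+CX was at 0.48 against NC (adjusted p = 0.0732). Without CL replicate 2, 3 or 4, CL+CX replicate 1, 2, 3 or 5, or NC replicate 1, 2 or 4, it did not pass (adjusted p 0.0502 to 0.105).

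The regions just before the start sites of these called receptors are shown because Nr2f6 and Nr3c2 are the receptors called in CL+CX against CL and Nr2c2 was called on more than 1 probe set in the CL diet. RefSeq promoters on GRCm38.p6 were matched for 34 of the 38 members, in 52 windows, and the 250 bases before the start were read. The start of Nr2c2 is preceded by chr6:92092183-92092432 on the plus strand, that of Nr2f6 by chr8:71381953-71382202 on the minus strand, and that of Nr3c2 by chr8:76902080-76902329 on the plus strand. Capitals mark GGGCGG or its reverse complement, the GC box of Sp1-type factors.
Nr2c2: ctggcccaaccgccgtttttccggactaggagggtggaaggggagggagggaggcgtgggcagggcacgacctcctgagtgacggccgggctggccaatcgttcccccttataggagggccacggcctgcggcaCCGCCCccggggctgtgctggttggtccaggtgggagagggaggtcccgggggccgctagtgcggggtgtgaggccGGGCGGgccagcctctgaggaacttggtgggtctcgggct
Nr2f6: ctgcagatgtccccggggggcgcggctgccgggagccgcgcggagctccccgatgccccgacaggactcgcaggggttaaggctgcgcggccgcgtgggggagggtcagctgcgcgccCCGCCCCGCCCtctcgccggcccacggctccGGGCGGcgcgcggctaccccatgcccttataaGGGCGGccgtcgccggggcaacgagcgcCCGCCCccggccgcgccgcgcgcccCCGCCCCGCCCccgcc
Nr3c2: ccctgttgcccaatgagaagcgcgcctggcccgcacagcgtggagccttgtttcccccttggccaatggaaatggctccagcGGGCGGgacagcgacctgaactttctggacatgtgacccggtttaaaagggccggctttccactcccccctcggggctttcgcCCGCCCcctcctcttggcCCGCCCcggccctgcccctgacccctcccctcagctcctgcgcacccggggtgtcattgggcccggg
The windows of Nr2c2, Nr2f6 and Nr3c2 hold 2, 7 and 3 such matches, some of them overlapping in Nr2f6, and their GC content is 71.2%, 82.4% and 68.4%. A GC box stood in 23 of the 52 member windows (44.2%) and in 32.7% of all 32851 promoter windows. Neither the AGGTCA element nor the E box CACGTG, searched on both strands, is in these 3 windows. They were found in 8 and 5 of the member windows (15.4% and 9.62%), against 14.0% and 6.02% of all windows.

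Other receptors were higher in CL+CX than in CL without a call. All 5 probe sets of Nr3c1 were higher, at 0.17 to 0.65, with 0.41 on 1460303_at, where CL+CX replicates 2, 3 and 5 lay above every CL mouse (standard error 0.13, adjusted p = 0.0895). Without CL replicate 1 it was 0.51 and passed (adjusted p = 0.0436). With the filter raised to the 75th percentile, 1460303_at and 1421867_at both passed, beside 7.26% of all probe sets. Nr1i2 was at 0.44 (adjusted p = 0.154) and 0.20 on its 2 probe sets. Nr2f2, COUP-TFII, was above 0 on all 4 of its probe sets, at 0.08 to 0.35. Rarb was the lowest of the genes apart from Nr4a1, at -0.66 (95% interval -1.19 to -0.12, adjusted p = 0.158). Nr1h3, Nr1h4 and Nr1i3 were at -0.16, 0.13 and 0.09, with 95% intervals of -0.57 to 0.25, -0.17 to 0.43 and -0.18 to 0.37.

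The third comparison, CL+CX against NC, asks which receptors still differed from chow, and it uses mice of both earlier comparisons. Of the 46 probe sets, 3 were called (6.52%, against 9.79% of all probe sets, 4.81% higher and 4.98% lower), 1 higher and 2 lower. Thra (1426997_at) was at -0.71 (standard error 0.13, adjusted p = 0.00356), a 1.64-fold lower signal. Rora (1458129_at) was at -0.56 (standard error 0.17, adjusted p = 0.0474), and it did not pass without CL replicate 3 or 4, without NC replicate 1, 2, 3 or 4 or without any 1 of the CL+CX mice (adjusted p 0.0534 to 0.105). Without CL replicate 2, 6 probe sets were called, beside 15% of all.

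Esrrg, the estrogen-related receptor γ, is active without a ligand and regulates oxidative metabolism. 1455267_at read 3.96, 3.59, 4.08, 3.84 and 3.87 in NC mice, 3.99, 4.01, 4.22, 3.52 and 4.76 in CL mice, and 4.56, 4.32, 4.74, 4.89 and 4.73 in CL+CX mice. Every CL+CX mouse was above every NC mouse, and the CL mice spread over both ranges. CL+CX was higher than NC by 0.78 (standard error 0.18, adjusted p = 0.0178), a 1.72-fold higher signal. The steps from NC to CL (0.23, adjusted p = 0.466) and from CL to CL+CX (0.55, adjusted p = 0.118) did not pass. The probe set entered the test through the CL+CX mice alone, the group in which it is high, and with no filter it did not pass (adjusted p = 0.0774). These levels are close to the array medians, and the other 2 probe sets of Esrrg missed the filter.

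Nr4a1, also known as Nur77, is an orphan receptor whose transcript is induced within minutes like the immediate early genes, and its values spread more than those of any other receptor tested. 1416505_at read 6.34, 5.63, 7.66, 7.66 and 7.14 in NC mice, 5.52, 6.23, 9.79, 6.56 and 5.47 in CL mice, and 4.93, 4.16, 3.99, 6.44 and 7.03 in CL+CX mice. CL replicate 3 stood far above the other CL mice, and CL+CX replicates 4 and 5 above the other CL+CX mice. CL differed from NC by -0.17 and CL+CX from CL by -1.40, each with a standard error of 0.78, and neither passed (adjusted p = 0.913 and 0.342). Fos, an immediate early gene, read 4.76, 4.81, 7.18, 8.27 and 8.42 in NC, 6.11, 10.19, 8.72, 9.95 and 9.15 in CL, and 4.96, 4.33, 3.95, 10.55 and 10.61 in CL+CX. The same CL+CX pair, replicates 4 and 5, stood apart from the other 3 for both genes. NC replicates 3, 4 and 5 were above NC replicates 1 and 2 for both genes as well. Among the CL mice, Nr4a1 was highest in replicate 3 and Fos in replicate 2. Of 8 immediate early genes tested, 1 was called higher in CL (Atf3, 2.01, standard error 0.54, adjusted p = 0.0249) and none in CL+CX against CL, with medians of 1.16 and -1.19. Nr4a2 and Nr4a3, the other members of this subfamily, were too dim to judge.

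**Figure D5:**
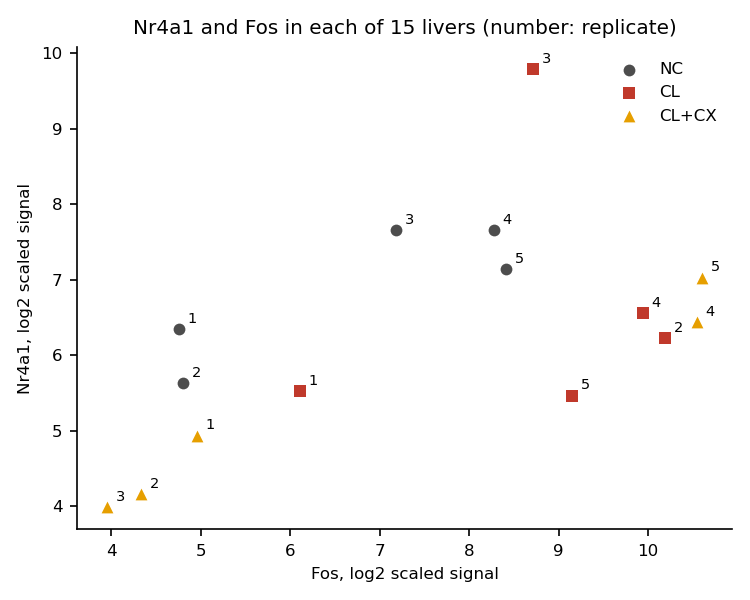
Log2 scaled signal of Nr4a1 (y axis) against that of Fos (x axis) in each of the 15 livers, with 1 point per mouse, coloured and shaped by group and numbered by replicate. CL+CX replicates 1, 2 and 3 lie at the lower left, with Nr4a1 between 3.99 and 4.93, and CL+CX replicates 4 and 5 at the right, with Nr4a1 at 6.44 and 7.03.

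Known target genes of the receptors gave a varied picture in the CL diet, and the share called among all genes was 14% (7.2% higher and 6.76% lower). Of the 10 LXR targets, 7 were called higher and none lower, with a median of 0.69, and the largest differences were in Lpl (2.20, standard error 0.22), the phospholipid transfer protein Pltp (1.40, standard error 0.19), and the sterol exporters Abcg1 (1.15, standard error 0.15) and Abcg5 (0.99, standard error 0.16). Lpl is also expressed by macrophages, and the macrophage markers rose in the same mice, all 11 of 11; their part in this count was not tested. Of 4 bile acid genes that FXR and SHP repress, 1 was called, the 12α-hydroxylase Cyp8b1 (-2.90, standard error 0.58, adjusted p = 0.00513), and Cyp7a1, the rate-limiting enzyme of bile acid synthesis, was at -1.39 (adjusted p = 0.0593). Of 8 genes induced by FXR, 6 were tested, and Apoc2 was higher (0.80) while Sdc1 (-0.81) and Fgfr4 (-0.48) were lower. The canalicular bile salt pump Abcb11 was at 0.56 (adjusted p = 0.0576).

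No target list of the other receptors had more than 2 calls. Of 9 CAR and PXR targets tested, 1 was called, the carboxylesterase Ces2a (-0.75, adjusted p = 0.0278). Of 5 retinoic acid targets, Cyp26a1, the main retinoic acid hydroxylase, was lower (-1.92, standard error 0.32, adjusted p = 0.00146) and Tgm2, which macrophages also express, was higher (0.68). Of 5 thyroid hormone targets, Me1 (-1.35, standard error 0.17) and Klf9 (-0.63, standard error 0.12) were lower. Of 10 glucocorticoid targets, the metallothionein Mt2 (-2.03) and the tyrosine aminotransferase Tat (-1.07) were lower and none higher. Of 6 PPARγ targets, Fabp4 (0.97) and Cd36 (0.84), both known in macrophages too, were higher.

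In CL+CX against CL, 3.26% of all genes were called (1.48% higher and 1.78% lower), and few targets were. Abcg8, the partner of Abcg5, was higher (0.77, standard error 0.16, adjusted p = 0.0227) and Lpl lower (-0.90, adjusted p = 0.0408). Alas1, the first enzyme of heme synthesis, was higher (1.06, standard error 0.26, adjusted p = 0.0423), as was Klf9 (0.56, standard error 0.12, adjusted p = 0.0278). None was called among the FXR-induced genes, the repressed bile acid genes and the targets of retinoic acid, glucocorticoids and PPARγ. Against NC, 8 of 10 LXR targets were called higher in CL+CX and 4 of 10 glucocorticoid targets lower (9.96% of all genes called, 5.11% higher and 4.85% lower).

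Coregulators, which receptors recruit to activate or repress genes, were lower or did not pass in the CL diet. Of 12 tested, Ppargc1a (-1.33, standard error 0.20), Ppargc1b (-1.01, standard error 0.15) and the corepressor subunit Tbl1xr1 (-0.35, standard error 0.09) were called lower. Only Ppargc1b was called in CL+CX against CL (1.19, standard error 0.15, adjusted p = 0.00264), where the median of the list was 0.25. Of 7 further nuclear receptors tested that are not among the 38, Ppara (-0.61), Hnf4a (-0.56), Esrra (-0.48) and Rxra (-0.41) were lower in CL, and Nr1d1 (2.62), Nr1d2 (1.05), Rxra (0.54) and Ppara (0.44) were higher in CL+CX than in CL. Rxra is the heterodimer partner of LXRα, FXR, PXR and CAR, and it lay in opposite directions in these comparisons, which share the CL mice. Of 14 circadian clock genes, 6 were called higher and 4 lower in CL+CX against CL, among them Dbp (4.12, standard error 0.26) and Arntl (-1.58, standard error 0.23). The time of day at which each mouse was killed is not given in the sources used here, and its part in the levels of Nr3c2, Nr2f6 or Rora was not tested.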

How the data were processed

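Liver RNA of 15 mice was hybridised to Affymetrix GeneChip mouse genome arrays. The authors summarised probe sets as MAS5 signals, and the intensity they deposited is linear, without detection calls and not brought to 1 level between arrays. Here, 64 control probe sets were left out of the tests, the 75th percentile of each array was brought to 54.4, a floor of 1 was applied (11.2% of all values lay under it) and log2 was taken. The median of each array stood in for the Present calls in the methods' filter. All 3 groups were fitted with limma 3.58.1 in R 4.3.3, with Benjamini-Hochberg adjustment over 20342 probe sets and a threshold of 0.05. Array number limits the precision, at a median standard error of 0.176. Symbols came from the platform annotation (34958 probe sets with 1 symbol, 932 with several, 9211 with none listed). Members and gene lists were chosen with earlier results of these data known. Values of every mouse are given for members with a call and for Nr1h3, Nr1h4, Nr0b2, Nr1i2, Nr1i3, Nr3c1, Thrb and Rara, and from each list up to 4 called genes with the largest difference, the others being named after their values were seen. Marker lists for sinusoidal endothelial (0 of 8 called in CL against NC, 2 lower in CL+CX against CL), stellate (1 of 8 higher, 1 lower), T cell (1 of 1 tested higher, none) and bile duct cells (0 of 1, 1 lower) were read from the same fit. As alternatives, each mouse was left out, the filter was dropped or raised to the 75th percentile, the scaling was dropped or replaced by quantile normalization, the floor was replaced by an offset of 16, the methods' test or a robust trend was used, only the pair of groups compared was fitted, replicate number or the β-actin difference entered the model, and the probe sets of a gene were averaged. Promoters were read from RefSeq (GRCm38.p6). Plots were made in Python 3.11.15 (matplotlib 3.10.9).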

Additional observations from a re-analysis of the deposited data

Results flagged for a closer look

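In the probe set standing for each of the 22 receptor genes tested, and in any other receptor probe set that was called, every group of 5 was searched for a mouse whose gap to its nearest neighbour exceeded 0.71 of the whole range of the group (Dixon's test). Of 81 groups examined, 4 had such a mouse, and chance gives about 1 in 20. CL replicate 2 was low for Nr2c2 (1451569_at) at 4.86, where the nearest CL mouse was at 5.68 and the highest at 5.86. CL+CX replicate 1 was low for Nr2f6 (1460648_at) at 7.66, with the other CL+CX mice at 7.98 to 8.0. CL+CX replicate 4 was low for Nr3c1 (1421866_at) at 3.30, with the others at 4.13 to 4.32. CL replicate 3 was high for Nr4a1 (1416505_at) at 9.79, with the others at 5.47 to 6.56.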

How the results depend on the processing

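Counts of receptor probe sets called moved with the settings, and the cause was not tested. For CL against NC (5, beside 12.2% of all probe sets) they were 3 with no filter (beside 2.5%), 1 with signals as deposited (11.4%), 8 with an offset of 16 (13.7%), 3 with the β-actin covariate (5.6%), and 7 with the stricter filter (19.6%), quantile normalization (11.6%) and a robust trend (13.1%). For CL+CX against CL (2, beside 3.13%) they were 0 with no filter (0.0844%), signals as deposited (0.398%), only the groups compared (0.698%) and the β-actin covariate (0.00492%). By the methods' test 1 was called (3.83%). With the stricter filter 3 were called higher (7.26%), Nr2f6 (1460647_a_at) and Nr3c1 (1421867_at and 1460303_at). For CL+CX against NC (3, beside 9.79%) they were 1 with no filter (1.34%), signals as deposited (9.57%) and the β-actin covariate (3.26%). They were 5 with the stricter filter (18.7%), the methods' test (8.92%) and a robust trend (11%). With the offset 6 were called (11.6%) and with only the groups compared 7 (15.7%). Leaving out 1 mouse gave 4 to 11, 0 to 4 and 2 to 6, and the shares over all probe sets moved as well (8.45% to 18.9%, 0.521% to 4.76% and 5.91% to 15%). Counts over all probe sets moved too, as from 637 to 38 with no filter, 81 as deposited, 142 with only the groups compared and 1 with the covariate in CL+CX against CL. Thra (1426997_at) and both Nr2c2 probe sets kept their calls in CL against NC except with signals as deposited (adjusted p = 0.172, 0.187 and 0.501). Rora (1458129_at) lost its call there with no filter, as deposited, by the methods' test, with only the groups compared and with the covariate (adjusted p 0.0524 to 0.273), and Esrrg with no filter and with the covariate (0.0774 and 0.127). As deposited, Nr0b2 was called (1.19, adjusted p = 0.0211). Over 22 single results and their alternatives, 467 of 550 values stayed on the same side of the threshold (6 of these, with no call on either side, with the sign changed), 72 lost and 11 gained a call, and no called result reversed.

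Equally numbered mice were not treated as pairs in the main fit. Their deviations correlated at -0.0142 to 0.135, -0.132 to 0.0452 and -0.0906 to 0.0597 in the 3 comparisons. In these, 6, 0 and 1 of 10 mice correlated best with their own number, and whether the numbers mark a pairing in CL against NC was not tested. With the replicate block the counts were 5, 2 and 3, beside 10.5%, 1.8% and 8.21% of all probe sets. In that fit Nr3c1 (1421866_at) in CL against NC and Rora (1458129_at) in CL+CX against NC did not pass (adjusted p = 0.0584 and 0.0608). Called lower in their place were Esr1 (1460591_at) in CL against NC and another Rora probe set (1420583_a_at) in CL+CX against NC.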
